A study of Mus musculus with 15 samples.

Results

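The 34 genes described here copy the genome and supply the building blocks for it. They cover origin licensing (Orc1, Orc6, Cdc6, Cdt1), the MCM helicase (Mcm2 to Mcm7), its activation (Mcm10, Cdc45, Gins1, Gins2), the polymerases with their primase, the sliding clamp with the enzymes that join the lagging strand, the synthesis of deoxynucleotides, and the chromatin factor Uhrf1. They were taken by symbol from the 19938 mouse genes with a probe set of a single symbol, and each was read from the probe set with the highest mean over the 15 arrays. All 34 had such a probe set.

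RNA of whole livers was hybridised to Affymetrix arrays that sample the length of each transcript, 1 array per mouse, and the values below are log2 expression levels. Each of the 5 groups held 3 arrays. WT mice carried floxed NEMO alleles with no deletion (NEMO floxed/floxed). Jnk1 KO (global Jnk1-/-) and Jnk2 KO (global Jnk2-/-) mice were null for 1 of these stress kinases throughout the body. NEMO/Jnk1 DKO (global Jnk1-/-/NEMOΔhepa) and NEMO/Jnk2 DKO (global Jnk2-/-/NEMOΔhepa) mice lacked, in addition, NEMO in hepatocytes. NEMO is the scaffold of the IκB kinase that switches on NF-κB. Its deletion was driven by Alb-cre, so the non-parenchymal cells of these livers kept it. All mice were C57BL/6, 8 weeks old and labelled male. None of the samples used here lacked NEMO alone, so its loss was read on the Jnk1-null and on the Jnk2-null background.

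Before a cell divides, the origin recognition complex, CDC6 and CDT1 load the hexameric MCM2-7 ring onto DNA. The ring becomes an active helicase once CDC45 and the GINS complex bind, with MCM10 needed for the step to productive unwinding. Polymerase alpha-primase then starts each strand, polymerases delta and epsilon extend it on the PCNA ring, and FEN1 and LIG1 seal the fragments, while ribonucleotide reductase (RRM1 and RRM2) and thymidylate synthesis supply the nucleotides. Most of these genes are transcribed at the G1/S boundary under E2F factors, and in a healthy adult liver, where nearly all hepatocytes rest outside the cycle, they are expressed weakly until injury or resection drives cells back into it.

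Several arrays had marker levels unlike those of their labelled group or sex, and this touched every comparison. Whether any array was mislabelled was not tested. Ly6d and Mmp12 stood at 7.88 to 10.48 and 7.54 to 8.96 in the 6 DKO arrays and at 4.67 to 5.35 and 3.69 to 4.88 in 7 of the 9 arrays with NEMO intact. The other 2 arrays, Jnk1 KO replicate 1 (Ly6d 10.12, Mmp12 8.66) and Jnk2 KO replicate 3 (9.70 and 8.20), lay within the DKO range. Ikbkg, which encodes NEMO, stood at 6.75 and 6.24 in them, at 6.18 to 6.85 in the DKO arrays and at 7.03 to 7.41 in the 7 others. These are called the 2 doubted arrays below, and the text says at each result whether it was read as labelled, without them, or in both ways. They were set aside for expression measured on the same arrays, so counts made without them cannot serve as independent evidence. In addition, 3 arrays labelled male (Jnk1 KO replicate 1 and NEMO/Jnk1 DKO replicates 1 and 2) had Xist at 8.68 to 9.17, against 2.40 to 2.82 in the 12 others, and a mean of 3 Y-linked genes at 2.75 to 2.98, against 6.79 to 7.26. Mapk9 (JNK2) stood at 2.39 to 3.28 in all Jnk2-null arrays and at 7.41 to 7.67 elsewhere. Mapk8 (JNK1) was at 5.87 to 6.53 in all Jnk1-null arrays and at 6.58 to 7.03 elsewhere. The 6.53 was that of NEMO/Jnk1 DKO replicate 3, close to the arrays with Jnk1 intact, and the other Jnk1-null arrays reached at most 6.23. The same replicate had the highest Ikbkg of the DKO arrays (6.85). The number of arrays limits the precision of every value.

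Sequence upstream of the members is shown here because E2F sites are the element this gene class is best known for. RefSeq (GRCm38.p6) windows from 250 bases before to 50 bases after the annotated start were at hand for 29 of the 34 members. The letters TTTCCCGC, TTTCGCGC, TTTGCCGC or TTTGGCGC, on either strand and with overlaps counted, occurred in the windows of 13 of those 29 members (44.8%), against 2.6% of 27025 genes with a window. The 13 were Cdc6, Cdt1, Lig1, Mcm3, Mcm5, Mcm6, Mcm7, Orc1, Pola1, Pold1, Pole2, Rfc3 and Uhrf1, with 19 matches in all, 11 of them before the start. Mcm6 and Mcm5 are printed as helicase members with 3 and 2 matches before the start, Rrm2 as a member past the threshold below, and Mcm10 as the member that moved against the others. Each line holds the 200 bases before the annotated start, 5′ to 3′ on the strand of the gene, with the searched letters in capitals. Mcm6 lies at chr1:128359706-128359905 on the minus strand, Mcm5 at chr8:75109309-75109508 on the plus strand, Rrm2 at chr12:24708054-24708253 on the plus strand and Mcm10 at chr2:5012792-5012991 on the minus strand.
Mcm6: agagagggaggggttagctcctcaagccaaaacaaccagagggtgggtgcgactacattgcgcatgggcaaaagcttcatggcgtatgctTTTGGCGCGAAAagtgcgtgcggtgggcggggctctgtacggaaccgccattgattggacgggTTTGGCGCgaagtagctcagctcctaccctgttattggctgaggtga
Mcm5: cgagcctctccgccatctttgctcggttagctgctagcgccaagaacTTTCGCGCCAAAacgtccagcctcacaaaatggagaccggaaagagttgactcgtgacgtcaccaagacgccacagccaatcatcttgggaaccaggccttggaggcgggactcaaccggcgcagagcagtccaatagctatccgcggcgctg
Rrm2: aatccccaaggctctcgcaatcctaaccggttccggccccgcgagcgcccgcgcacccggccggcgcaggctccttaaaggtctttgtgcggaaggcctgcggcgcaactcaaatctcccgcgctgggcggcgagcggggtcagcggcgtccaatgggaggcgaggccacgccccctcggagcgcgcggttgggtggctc
Mcm10: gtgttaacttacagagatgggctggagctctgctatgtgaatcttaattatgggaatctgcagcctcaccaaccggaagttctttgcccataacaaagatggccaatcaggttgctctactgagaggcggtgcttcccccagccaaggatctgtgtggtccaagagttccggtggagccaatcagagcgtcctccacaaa
In Mcm6 the longer run of capitals is a pair of overlapping matches, 1 on each strand, and in Mcm5 likewise. A match is a run of letters and was not tested for binding, and the lines of Rrm2 and Mcm10 say only that these letters are not in this stretch.

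Across the arrays the members were, at the median, within 0.13 of the WT mean wherever the liver looked NEMO-intact by Ly6d and Mmp12, and above it in all 6 DKO arrays. The median over the 34 members of the log2 value less the WT mean was 0.51, 0.32 and 0.43 in the NEMO/Jnk1 DKO arrays and 0.40, 0.29 and 0.87 in the NEMO/Jnk2 DKO arrays. It was 0.59 in the doubted array of Jnk1 KO, with 0.06 and 0.00 in the other 2 arrays of that group, and 0.21 in the doubted array of Jnk2 KO, with 0.13 and -0.08 in the other 2. Between 22 and 30 of the 34 members exceeded all 3 WT arrays in each DKO array, against 22.6% to 26.0% of all genes there. In the 4 arrays of Jnk1 KO and Jnk2 KO that are not doubted, 4 to 15 members did so, against 19.1% to 23.3% of all genes. Members also lay below all 3 WT arrays there, 9 to 17 of them against at least 30.4% of all genes, while 1 to 7 did so in the DKO arrays against 30.5% to 35.9%. NEMO/Jnk2 DKO replicate 3 held the highest value of the series for 23 of the 34 members.

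**Figure D1:**
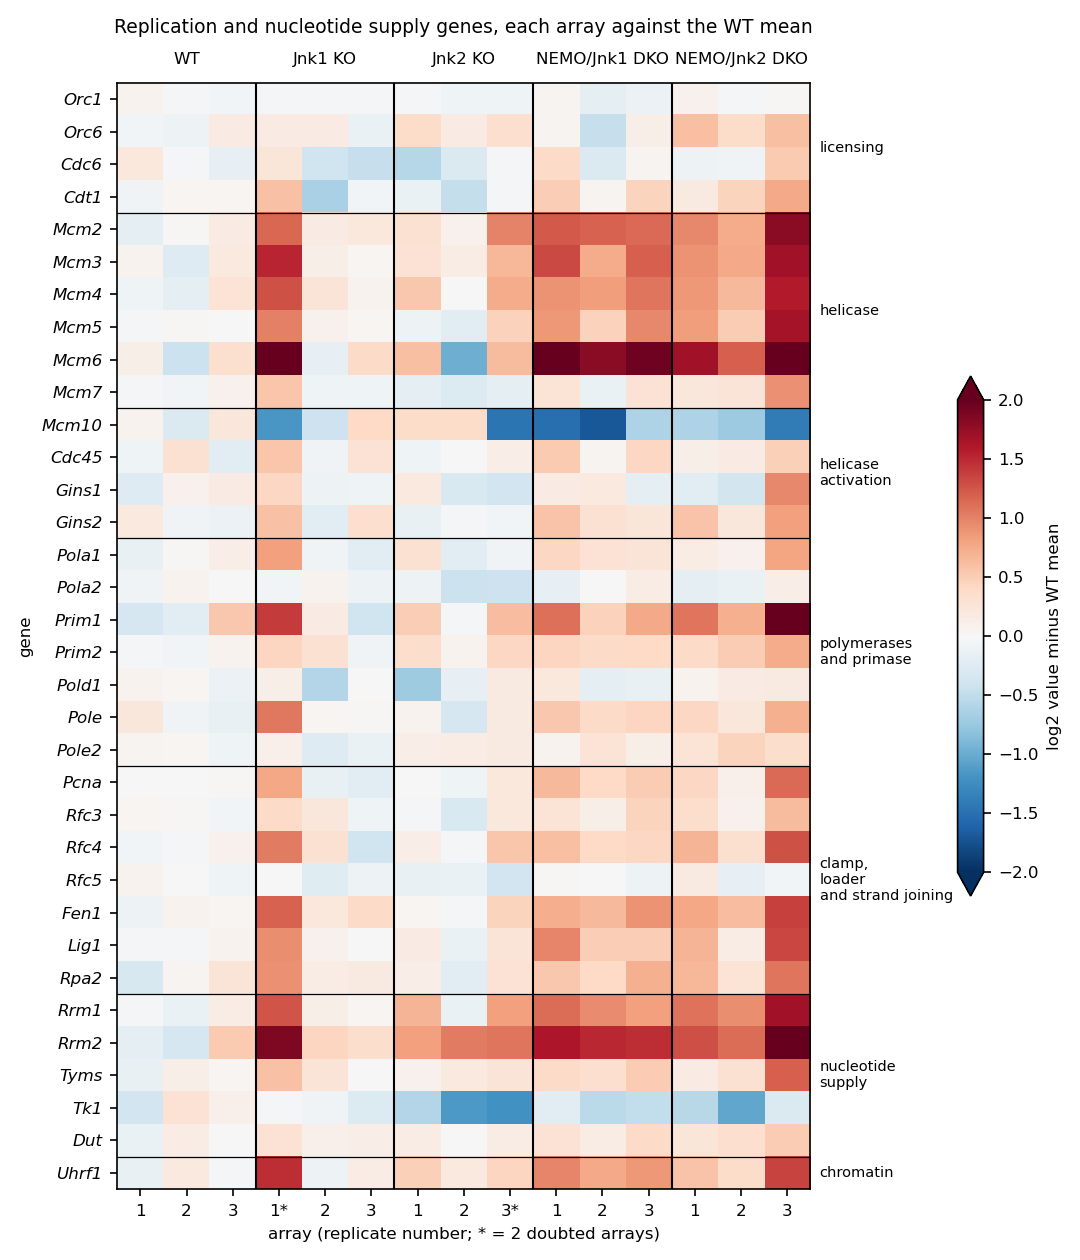
Heat map of the 34 members (lines, grouped by role) in the 15 arrays (columns, by group and replicate), coloured by the log2 value minus the WT mean of that gene, with the colours ending at -2 and 2 and an asterisk on the 2 doubted arrays. The helicase genes are darkest in the 6 DKO arrays and in Jnk1 KO replicate 1, and Mcm10 has the opposite colour in the same arrays.

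The effect of NEMO loss was first read as the average of NEMO/Jnk1 DKO less Jnk1 KO and NEMO/Jnk2 DKO less Jnk2 KO. As labelled, 33 of the 34 members had a positive difference, with a median of 0.34 on the log2 scale against 0.00 over all genes. None passed a limma adjusted p under 0.05, 20 had an unadjusted p under 0.05 (10.5% of all genes did), and 0.00502% of all genes (1 of 19938) passed. Once the 2 doubted arrays were set aside, 21 of the 34 members passed, 20 of them higher and Mcm10 lower, with a median of 0.49 against -0.01 over all genes. Leaving out Jnk1 KO replicate 1 alone gave 14 members, all higher, against 4.3% of all genes in that fit. Leaving out Jnk2 KO replicate 3 alone gave 0 members, against 0.752% of all genes. The background without both was 11.7% of all genes passed in either direction, 7.68% higher and 3.97% lower, so the 20 of 34 members that rose made up a larger share than in the background. With a term for the Xist and Y-linked pattern added as well, 9 members passed (Cdt1, Mcm2 to Mcm6, Fen1 and Rrm1 higher, Mcm10 lower) against 6.3% of all genes. The rest of the 21 no longer passed in that fit. In whole liver a larger share of cells expressing a gene and more RNA per cell cannot be told apart.

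Among the licensing genes, Cdt1 had the lowest p. CDT1 carries the MCM ring to the origin and is destroyed once replication begins. Here and below, values run from replicate 1 to 3 in each group, so the first Jnk1 KO and the last Jnk2 KO value are those of the doubted arrays. Cdt1 stood at 4.94, 5.04 and 5.04 in WT, 5.60, 4.36 and 4.95 in Jnk1 KO, 4.87, 4.53 and 4.98 in Jnk2 KO, 5.50, 5.06 and 5.45 in NEMO/Jnk1 DKO and 5.19, 5.45 and 5.76 in NEMO/Jnk2 DKO. All 6 DKO arrays lay above the 7 NEMO-intact arrays that are not doubted, though the lowest did so by little. Its averaged difference was 0.52 ± 0.17 (SE, limma adjusted p = 0.380) as labelled and 0.72 ± 0.14 (adjusted p = 0.00409) without the doubted arrays. Cdc6, the ATPase that works beside it, gave 0.34 ± 0.16 and 0.51 ± 0.15 (adjusted p = 0.487 and 0.0394). The origin recognition subunits did not pass in either reading. Orc6 was at 0.03 as labelled and 0.07 without the doubted arrays, with 95% intervals from -0.19 to 0.25 and from -0.18 to 0.33. Orc1 stayed between 2.59 and 2.86, below 3.69, the 40th percentile of all deposited values, in all 15 arrays, so its level was not resolved. Cdc6 lay near that limit, at 3.26 to 4.04 (median 3.55) in the 7 undoubted NEMO-intact arrays and 3.55 to 4.36 in the DKO arrays.

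The MCM helicase subunits had the highest median difference of the role groups with more than 1 member, 0.66 as labelled and 0.95 without the doubted arrays. Mcm6 stood at 4.78, 4.24 and 4.99 in WT, 7.08, 4.50 and 5.05 in Jnk1 KO, 5.27, 3.69 and 5.30 in Jnk2 KO, 7.05, 6.47 and 6.62 in NEMO/Jnk1 DKO and 6.35, 5.87 and 7.91 in NEMO/Jnk2 DKO. The 6 DKO values all exceeded the 7 undoubted NEMO-intact ones, and Jnk1 KO replicate 1 sat among the DKO values. The averaged difference was 1.56 ± 0.45 as labelled, a 2.95-fold higher level with a limma adjusted p = 0.376, and 2.08 ± 0.37 without the doubted arrays, 4.23-fold with adjusted p = 0.00217. Mcm2, another subunit of the ring, had 4.82, 5.03 and 5.18 in WT and 6.24, 6.19 and 6.15 in NEMO/Jnk1 DKO, with 5.97, 5.76 and 6.81 in NEMO/Jnk2 DKO. The Jnk1 KO arrays gave 6.16, 5.18 and 5.22 for it and the Jnk2 KO arrays 5.31, 5.10 and 6.01, so both doubted arrays reached the DKO range and the other 4 did not. Its averaged difference was 0.69 ± 0.21 and 0.98 ± 0.16 (adjusted p = 0.376 and 0.00126). All 6 subunits had an unadjusted p under 0.05 as labelled, with differences from 0.35 for Mcm7 to 1.56 for Mcm6. Without the doubted arrays all 6 rose, by 0.46 (Mcm7), 0.77 (Mcm4), 0.93 (Mcm5), 0.96 (Mcm3), 0.98 (Mcm2) and 2.08 (Mcm6). Mcm7, also the host gene of a microRNA cluster, was the least changed of them, and with the sex term added it no longer passed (limma adjusted p = 0.0676).

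**Figure D2:**
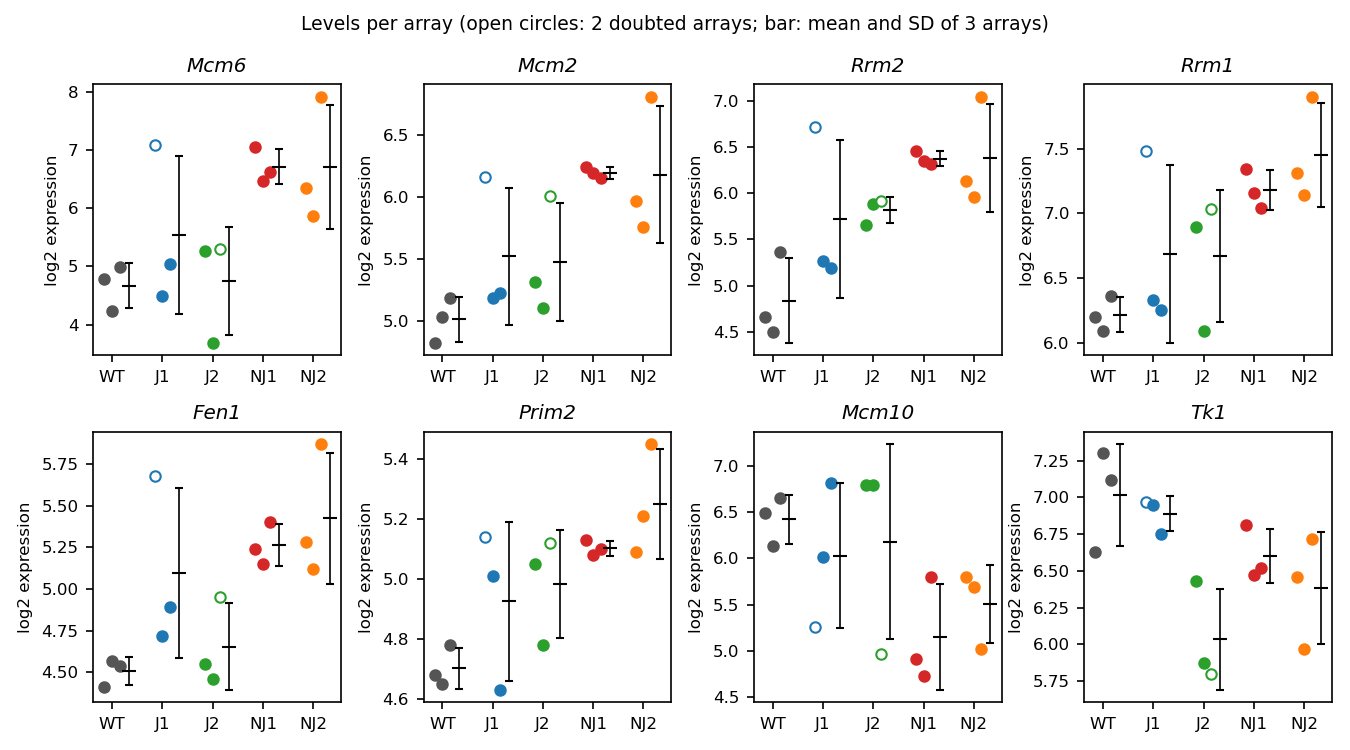
Log2 expression (vertical axes, which do not start at 0) of 8 members in each array, by group: WT, Jnk1 KO (J1), Jnk2 KO (J2), NEMO/Jnk1 DKO (NJ1) and NEMO/Jnk2 DKO (NJ2). Points are arrays, open circles the 2 doubted ones, and bars the mean and SD of 3 arrays. For Mcm6, Mcm2, Rrm2 and Rrm1 the open circle of Jnk1 KO sits among the DKO points, for Mcm10 it sits low with them, and Tk1 is lowest in Jnk2 KO.

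Of the 4 genes that activate the helicase, Mcm10 fell and Gins2 rose without the doubted arrays, and the other 2 did not pass. MCM10 binds the loaded ring and helps the double hexamer to separate into 2 working helicases. Mcm10 had 6.49, 6.13 and 6.65 in WT, 5.26, 6.01 and 6.82 in Jnk1 KO, 6.79, 6.79 and 4.96 in Jnk2 KO, 4.91, 4.73 and 5.80 in NEMO/Jnk1 DKO and 5.80, 5.69 and 5.02 in NEMO/Jnk2 DKO. Both doubted arrays and all 6 DKO arrays lay below every other array. Its averaged difference was -0.78 ± 0.34 as labelled (limma adjusted p = 0.441) and -1.28 ± 0.22 without the doubted arrays (adjusted p = 0.00207), and it was -0.95 ± 0.21 (adjusted p = 0.0181) with the sex term too. The 3 arrays with the female pattern are among the 5 lowest values of this gene, and with that term the difference on the Jnk1-null background was -0.62 ± 0.34 (adjusted p = 0.591). Mcm10 has a single probe set here, so no second reading of this direction was at hand. Gins2, a GINS subunit, stood at 4.83, 4.56 and 4.52 in WT, 5.23, 4.41 and 4.97 in Jnk1 KO, 4.49, 4.59 and 4.58 in Jnk2 KO, 5.20, 4.94 and 4.88 in NEMO/Jnk1 DKO and 5.21, 4.87 and 5.45 in NEMO/Jnk2 DKO. The DKO arrays lay above WT and Jnk2 KO but overlapped Jnk1 KO, and the averaged difference was 0.38 ± 0.13 and 0.48 ± 0.13 (adjusted p = 0.396 and 0.0331). Gins1 and Cdc45 did not pass in either reading. They were at 0.14 and 0.16 as labelled, and at 0.17 (95% interval -0.30 to 0.63) and 0.27 (-0.01 to 0.54) without the doubted arrays.

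The polymerase and primase genes were mixed, with a median difference of 0.24 as labelled and 0.38 without the doubted arrays. Prim1, the catalytic subunit of the primase, stood at 4.45, 4.58 and 5.32 in WT, 6.18, 4.95 and 4.39 in Jnk1 KO, 5.27, 4.74 and 5.40 in Jnk2 KO, 5.88, 5.24 and 5.54 in NEMO/Jnk1 DKO and 5.85, 5.50 and 6.99 in NEMO/Jnk2 DKO. Its highest WT array exceeded the lowest DKO array, and the averaged difference was 0.68 ± 0.31 and 1.00 ± 0.27 (limma adjusted p = 0.465 and 0.0294). Prim2, the regulatory subunit, moved in a narrower range, from 4.65 to 4.78 in WT, 4.63 to 5.14 in Jnk1 KO, 4.78 to 5.12 in Jnk2 KO, 5.08 to 5.13 in NEMO/Jnk1 DKO and 5.09 to 5.45 in NEMO/Jnk2 DKO. The 6 DKO arrays stood above all 3 WT arrays, and the averaged difference was 0.23 ± 0.09 and 0.31 ± 0.10 (adjusted p = 0.434 and 0.0522). Pole, the catalytic subunit of the leading-strand polymerase, was at 0.28 ± 0.17 as labelled (adjusted p = 0.572) and rose by 0.50 ± 0.11 without the doubted arrays (adjusted p = 0.0102). Pole2, its second subunit, had the lowest p of these genes and stood at 3.04, 3.02 and 2.89 in WT, 3.09, 2.72 and 2.85 in Jnk1 KO, 3.11, 3.13 and 3.17 in Jnk2 KO, 3.05, 3.25 and 3.10 in NEMO/Jnk1 DKO and 3.25, 3.43 and 3.33 in NEMO/Jnk2 DKO. All 15 values lie below 3.69, so its level was not resolved, and the DKO arrays overlapped the others. Its difference was 0.22 ± 0.07 (adjusted p = 0.376) as labelled and 0.28 ± 0.07 (adjusted p = 0.0192) without the doubted arrays. Pola1 and Pold1, the catalytic subunits of polymerases alpha and delta, were both at 0.24 as labelled. With the doubted arrays set aside they were at 0.38 and 0.41 (adjusted p = 0.102 and 0.0604). Pola2 was at 0.14 and 0.10, the latter with a 95% interval from -0.10 to 0.31. In that reading Prim1 and Pole rose among these 7 genes, Pole2 passed at a level that was not resolved, and 4 did not pass. Pole lay near 3.69 as well. Its range was 3.18 to 3.74 (median 3.54) in the 7 undoubted NEMO-intact arrays and 3.74 to 4.23 in the DKO arrays.

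On the lagging strand and at the clamp, 5 of 7 genes rose without the doubted arrays. Only Fen1 of these still passed with the sex term added as well. Fen1, the flap nuclease that trims Okazaki fragments, stood at 4.41, 4.57 and 4.54 in WT, 5.68, 4.72 and 4.89 in Jnk1 KO, 4.55, 4.46 and 4.95 in Jnk2 KO, 5.24, 5.15 and 5.40 in NEMO/Jnk1 DKO and 5.28, 5.12 and 5.87 in NEMO/Jnk2 DKO. The DKO arrays were all higher than the 7 undoubted NEMO-intact arrays, and all 3 Jnk1 KO arrays were higher than WT. The averaged difference was 0.47 ± 0.16 and 0.69 ± 0.12 (limma adjusted p = 0.396 and 0.00236). Pcna, the clamp itself, ranged from 7.56 to 7.60 in WT, 7.97 to 8.22 in NEMO/Jnk1 DKO and 7.67 to 8.70 in NEMO/Jnk2 DKO. It stood at 8.34 in Jnk1 KO replicate 1 and 7.35 to 7.78 in the other Jnk1 KO and Jnk2 KO arrays. Its averaged difference was 0.45 ± 0.18 (adjusted p = 0.420) with every array, and it rose by 0.65 ± 0.15 (adjusted p = 0.0121) once the doubted arrays were set aside. Rfc4, Lig1 and Rpa2 (a clamp loader subunit, the ligase and a subunit of the single-strand binding protein) were at 0.35, 0.46 and 0.37 as labelled (adjusted p = 0.579, 0.435 and 0.461) and rose by 0.61, 0.65 and 0.55 without the doubted arrays. The loader subunits Rfc3 and Rfc5 did not pass in either reading, at 0.25 and 0.14 as labelled. Once those were set aside they were at 0.37 (adjusted p = 0.0538) and 0.13 (95% interval -0.04 to 0.30).

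Among the 5 nucleotide supply genes, both subunits of ribonucleotide reductase rose without the doubted arrays and the other 3 genes did not pass. Rrm1, the large subunit, stood at 6.20, 6.09 and 6.36 in WT, 7.48, 6.33 and 6.25 in Jnk1 KO, 6.89, 6.09 and 7.03 in Jnk2 KO, 7.34, 7.16 and 7.04 in NEMO/Jnk1 DKO and 7.31, 7.14 and 7.90 in NEMO/Jnk2 DKO. The DKO arrays lay above the undoubted NEMO-intact arrays, of which Jnk2 KO replicate 1 came nearest. The averaged difference was 0.64 ± 0.22 and 0.92 ± 0.16 (limma adjusted p = 0.389 and 0.00202). Rrm2, the small subunit whose abundance follows the cell cycle, had 4.66, 4.50 and 5.36 in WT, 6.71, 5.27 and 5.19 in Jnk1 KO, 5.66, 5.88 and 5.91 in Jnk2 KO, 6.46, 6.35 and 6.31 in NEMO/Jnk1 DKO and 6.13, 5.96 and 7.04 in NEMO/Jnk2 DKO. All 3 Jnk2 KO arrays exceeded all WT arrays, and the difference of NEMO/Jnk2 DKO from Jnk2 KO was 0.56 as labelled (95% interval -0.22 to 1.33) and 0.61 without the doubted array (limma adjusted p = 0.273). The averaged difference of Rrm2 was 0.60 ± 0.25 and 0.87 ± 0.20 (adjusted p = 0.439 and 0.0110). Thymidylate synthase (Tyms) and the dUTPase (Dut) had differences of 0.25 and 0.18 as labelled, which became 0.35 and 0.22 with those arrays set aside (adjusted p = 0.212 and 0.110). Tk1, the salvage thymidine kinase, was at 0.03 as labelled and at -0.01 without them, with a 95% interval from -0.37 to 0.35. Uhrf1, which brings DNA methyltransferase 1 to newly copied DNA, was at 3.20, 3.54 and 3.30 in WT, 4.83, 3.24 and 3.49 in Jnk1 KO, 3.83, 3.54 and 3.78 in Jnk2 KO, 4.33, 4.11 and 4.21 in NEMO/Jnk1 DKO and 3.92, 3.71 and 4.70 in NEMO/Jnk2 DKO. Its lowest DKO array fell inside the Jnk2 KO range, and its averaged difference was 0.38 ± 0.23 and 0.64 ± 0.16 (adjusted p = 0.586 and 0.0196).

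**Figure D3:**
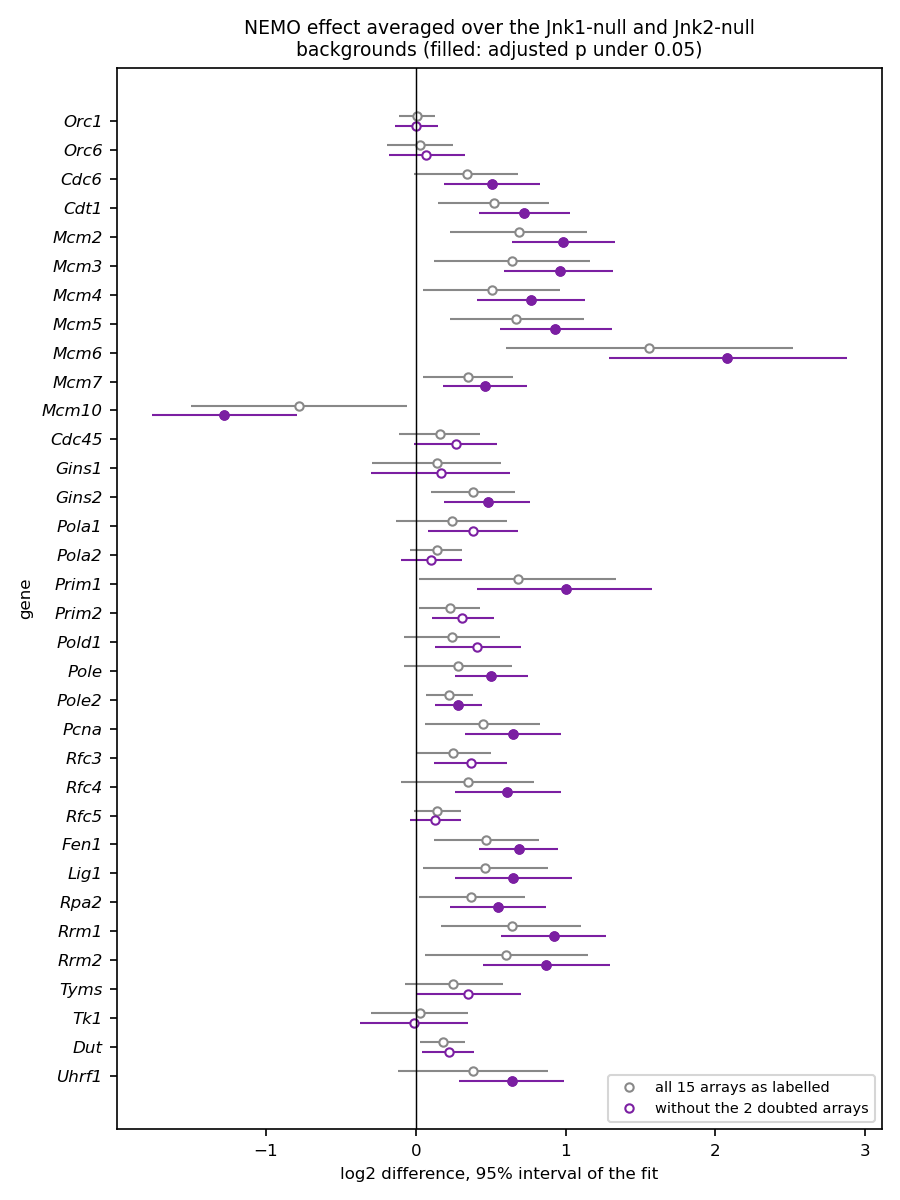
Log2 difference of NEMO loss averaged over the Jnk1-null and Jnk2-null backgrounds for each of the 34 members (vertical axis), with the 95% interval of the limma fit, for all 15 arrays (grey) and without the 2 doubted arrays (purple). Filled points passed an adjusted p under 0.05. No grey point is filled, 21 purple points are, and Mcm10 is alone to the left of 0 among them.

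On each background taken alone the same direction was seen, with fewer calls. On the Jnk1-null background as labelled the member median was 0.15, and no member and 0% of all genes passed in limma, while 2 members had an unadjusted p under 0.05, against 4.55% of all genes. With the doubted array set aside the median was 0.41 and 7 members passed, against 5.18% of all genes: Mcm2, Mcm3, Mcm6, Rrm1, Rrm2 and Uhrf1 rose (4.05% of all genes) and Mcm10 fell (1.13%). With the sex term as well, which leaves NEMO/Jnk1 DKO replicate 3 as the only array of its group with the male pattern, none passed in limma against 1.21% of all genes, and 12 had an unadjusted p under 0.05 against 10.6%. On the Jnk2-null background as labelled the median was 0.45, and no member passed in limma against 0.00502% of all genes, while 15 had an unadjusted p under 0.05 against 7.91%. Setting the doubted array aside gave a median of 0.58 and 10 calls, against 5.85% of all genes. Cdt1, Mcm2, Mcm3, Mcm5, Mcm6, Mcm7, Pole, Fen1 and Rrm1 rose (3.88% of all genes) and Mcm10 fell (1.98%). Mcm2, Mcm3, Mcm6, Mcm10 and Rrm1 passed on both backgrounds.

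Whether NEMO loss acted differently on the 2 backgrounds was tested as the difference of the differences. No member passed in limma with the arrays as labelled, nor did any gene of the array (0%). An unadjusted p under 0.05 was found for 1 member, Mcm7 at -0.67 ± 0.28 (limma adjusted p = 1), and for 2.75% of all genes. The median over members was -0.25 as labelled and -0.12 without the doubted arrays, where again none passed in limma and 0 had an unadjusted p under 0.05, against 0.01% and 6.59% of all genes. For Mcm6 the 95% interval ran from -2.70 to 1.13 as labelled and from -1.88 to 1.30 without the doubted arrays, so a difference of 1 log2 unit in either direction lay inside it. For Rrm2 it ran from -0.32 to 1.39 without the doubted arrays, and a difference of 1 log2 unit lay inside it in the positive direction only.

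Against WT, which shares neither Jnk deletion, most members had a positive difference in both DKO groups. These 2 comparisons use the same WT arrays, and their values are given side by side. For NEMO/Jnk2 DKO as labelled, 2 members rose: Rrm2 by 1.54 ± 0.36 (limma adjusted p = 0.0416) and Prim2 by 0.55 ± 0.13 (adjusted p = 0.0468). Both calls lay near the threshold: neither was made when WT replicate 1, 2 or 3, Jnk2 KO replicate 1, NEMO/Jnk1 DKO replicate 1, 2 or 3, or NEMO/Jnk2 DKO replicate 1, 2 or 3 was left out, with the replicate number as a block, or with an intensity trend and robust prior. Over their alternatives the adjusted p ran from 0.00151 to 0.157 for Rrm2 and from 0.0103 to 0.154 for Prim2. Of all genes 2.63% passed, and 0.873% rose. In all, 23 members had an unadjusted p under 0.05, against 18.9% of all genes, and the median of the 34 was 0.53 against -0.04 over all genes. NEMO/Jnk1 DKO gave none past the limma threshold, against 0.0652% of all genes, 14 with an unadjusted p under 0.05, against 16.3%, and a median of 0.39. Rrm2 was at 1.53 ± 0.36 there (adjusted p = 0.0976) and Prim2 at 0.40 ± 0.13 (adjusted p = 0.166). Mcm6 was at 2.04 ± 0.63 in both, Mcm2 at 1.18 ± 0.30 and 1.17 ± 0.30, and Fen1 at 0.76 ± 0.23 and 0.92 ± 0.23, the Jnk1-null group first. None of these 3 passed, with adjusted p from 0.0505 to 0.152. The doubted arrays belong to neither side but enter the shared spread. With them set aside, 9 members passed for NEMO/Jnk1 DKO against 7.91% of all genes, 8 of them higher (4.92%) and Mcm10 lower (2.99%). For NEMO/Jnk2 DKO 16 passed, all higher, against 10.6% of all genes in either direction and 5.75% higher. Leaving out Jnk1 KO replicate 1 alone gave 8 and 14 members, against 4.34% and 7.36% of all genes. Leaving out Jnk2 KO replicate 3 alone gave 0 and 5, against 0.0853% and 4.45%. With the sex term added to the reading without both arrays the limma counts were 0 and 17, against 1.31% and 10.5% of all genes, with 13 and 26 at an unadjusted p under 0.05, against 12.2% and 22.3%.

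**Figure D4:**
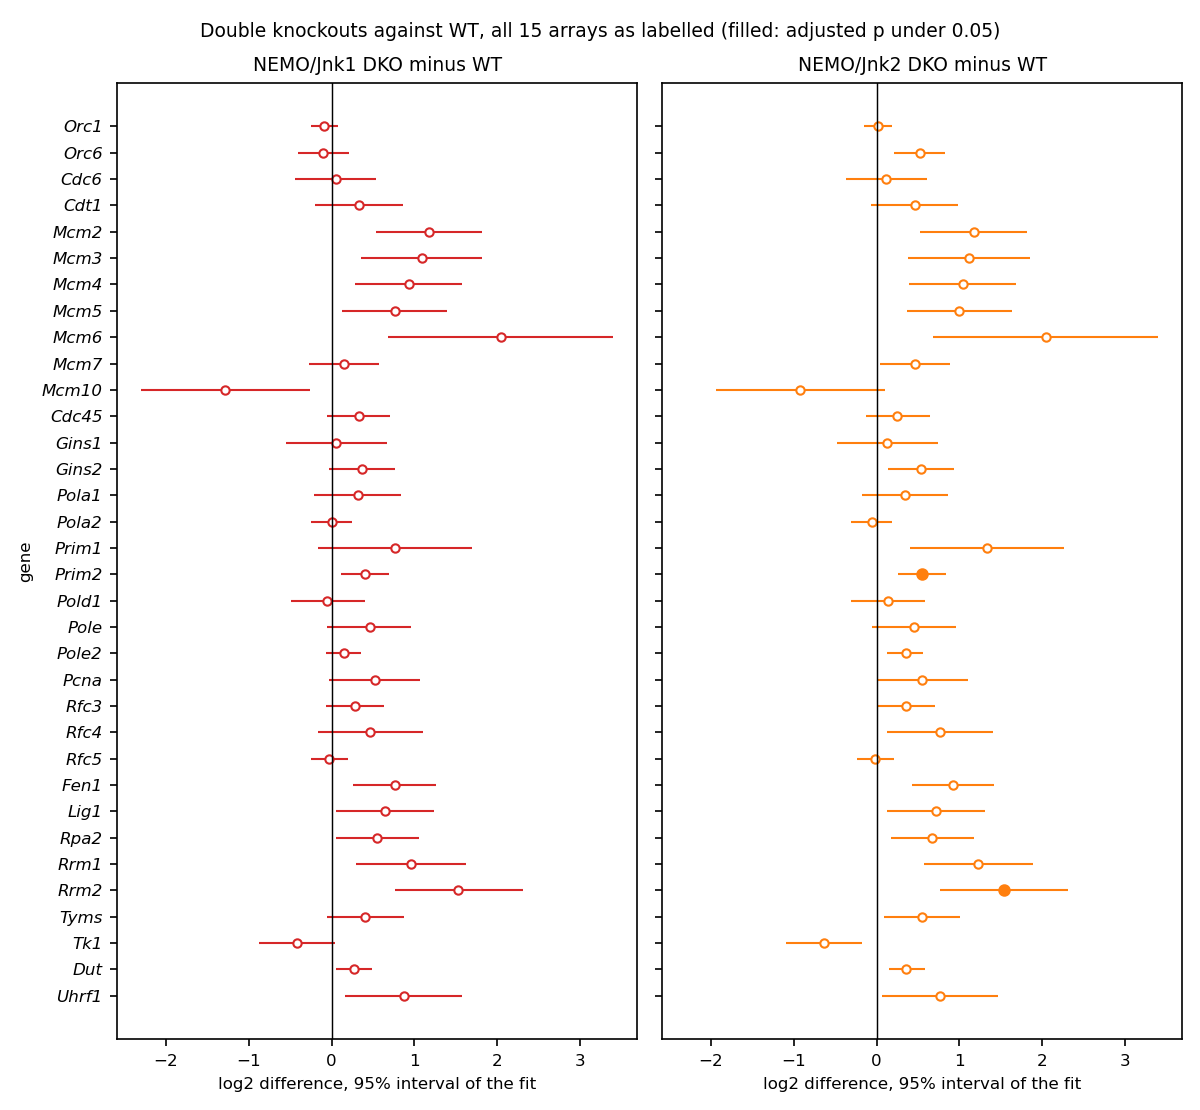
Log2 difference of NEMO/Jnk1 DKO (left) and NEMO/Jnk2 DKO (right) from the same 3 WT arrays for each of the 34 members, with all 15 arrays as labelled and the 95% interval of the limma fit. Only Prim2 and Rrm2 in NEMO/Jnk2 DKO are filled (adjusted p under 0.05), and the intervals of Mcm6 and Mcm10 are the widest.

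Counting arrays instead of fitting a spread, 21 of the 34 members were higher in all NEMO/Jnk1 DKO arrays than in all WT arrays, against 11.5% of all genes, and 1 (Mcm10) was lower, against 14.1%. For NEMO/Jnk2 DKO 24 were higher and 1 (Mcm10) lower, against 11.8% and 15.9%. All 6 DKO arrays stood above the 7 undoubted NEMO-intact arrays for Cdt1, Mcm2 to Mcm6, Prim2, Pcna, Rfc4, Fen1, Rpa2, Rrm1 and Rrm2, 13 members against 4.68% of all genes. They stood below them for Mcm10, against 1.82%. As labelled, no member separated NEMO/Jnk1 DKO from Jnk1 KO (2.52% of all genes were higher and 4.17% lower), while 13 were higher in NEMO/Jnk2 DKO than in Jnk2 KO, against 5.28%, and none lower, against 6.38%.

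The loss of Jnk1 or Jnk2 alone left most members near WT. With its doubted array set aside, Jnk1 KO had a median of 0.03 and no member past the limma threshold or with an unadjusted p under 0.05, against 0.015% and 5.07% of all genes. As labelled the median was 0.23 and 2 members, Fen1 and Rrm2, had an unadjusted p under 0.05, against 5.58% of all genes, with 0.01% of all genes past the threshold. Mcm2, Mcm5 and Fen1 were above all WT arrays in all 3 Jnk1 KO arrays, and none was below, against 2.45% and 6.21% of all genes. Jnk2 KO had a median of 0.06 as labelled and -0.02 without its doubted array, with none past the limma threshold in either, against 0.411% and 1.24% of all genes. In both, 3 members had an unadjusted p under 0.05, against 12.1% and 12.9% of all genes. These 3 as labelled were Tk1, Rrm2 at 0.98 ± 0.36 (limma adjusted p = 0.280) and Pola2 at -0.32 ± 0.12 (adjusted p = 0.282). The direct comparison of Jnk1 KO with Jnk2 KO had a median of 0.13 as labelled, none past the threshold in limma and 3 with an unadjusted p under 0.05, against 0.13% and 7% of all genes. That median rested on the doubted array of Jnk1 KO: it was 0.00 without both doubted arrays, with 17 members positive and 17 negative, and -0.04 without the arrays of female pattern. In the reading without both, none passed in limma and 2 had an unadjusted p under 0.05, against 0.597% and 10.8% of all genes. The 2 DKO groups differed by a median of -0.10 (Jnk1-null less Jnk2-null), and none passed in limma, against 0.105% of all genes. Setting aside the doubted arrays, which belong to neither group, left the median at -0.10, and again none passed, against 0.321%, with 2 at an unadjusted p under 0.05 against 7.5%. This median changed with the handling of the Xist and Y-linked pattern. With the sex term and the doubted arrays kept it was -0.36, with 31 of 34 members negative. Jnk1 KO replicate 1 is both doubted and of female pattern, so within its group these traits cannot be told apart. None passed in limma in that fit, against 0.0752% of all genes. Without the arrays of female pattern, which leaves only replicate 3 of NEMO/Jnk1 DKO, the median was -0.05. As labelled, an unadjusted p under 0.05 was found for 1 member, against 5.44% of all genes. This was Orc6, at 5.23, 4.71 and 5.28 in NEMO/Jnk1 DKO and 5.77, 5.53 and 5.77 in NEMO/Jnk2 DKO, a difference of -0.62 ± 0.15 (adjusted p = 0.217).

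Tk1 had the lowest p of the members in Jnk2 KO against WT, and it was picked for description after its values were seen. It stood at 6.63, 7.30 and 7.12 in WT, 6.97, 6.95 and 6.75 in Jnk1 KO, 6.43, 5.87 and 5.80 in Jnk2 KO, 6.81, 6.47 and 6.52 in NEMO/Jnk1 DKO and 6.46, 5.97 and 6.72 in NEMO/Jnk2 DKO. The Jnk2 KO arrays were below all WT arrays and all Jnk1 KO arrays. The difference of Jnk2 KO from WT was -0.98 ± 0.21 as labelled (limma adjusted p = 0.0722) and -0.86 ± 0.24 without the doubted array (adjusted p = 0.107), and it did not pass in either. It passed where Jnk2 KO replicate 1 was left out (-1.18, adjusted p = 0.0451) and where the 2 probe sets of Tk1 were averaged (-1.02, adjusted p = 0.0267), and over its alternatives the adjusted p ran from 0.0267 to 0.234. A second Tk1 probe set, which lists overlapping but not identical transcripts, gave -1.07 for the same difference. By that probe set Jnk2 KO lay below WT but not below all Jnk1 KO arrays. Jnk2 KO replicate 1 stood at 5.59 and the doubted Jnk1 KO replicate 1 at 5.58. Its difference of Jnk1 KO from WT was -0.38, against -0.13 with the probe set used. Both DKO groups were lower than WT too, the Jnk1-null one by -0.61 (-0.42 with the probe set used) and the Jnk2-null one by -0.78 (-0.63). Pola2, Rfc5 and Mcm7 were also below all WT arrays in Jnk2 KO, so 4 members were lower without overlap, against 10.9% of all genes, and 2 (Pole2 and Rrm2) higher, against 6.16%.

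The mitotic genes, which act after replication is done, were read on the same arrays as a second set of cell cycle genes. Over 19 of them (such as Mki67, Top2a, Cdk1 and Ccnb1) the median log2 value less the WT mean was 1.80, 1.31 and 1.34 in NEMO/Jnk1 DKO and 1.91, 1.13 and 1.77 in NEMO/Jnk2 DKO, 2.54 in the doubted array of Jnk1 KO and 1.11 in that of Jnk2 KO. The other 7 arrays lay between -0.22 and 0.36. The order of the arrays was not the same in the 2 sets of genes. Jnk1 KO replicate 1 was highest for mitosis and the members of replication were highest in NEMO/Jnk2 DKO replicate 3. For NEMO loss averaged over both backgrounds the 19 genes had a median of 0.93 as labelled. None passed the limma threshold and 13 had an unadjusted p under 0.05, against 0.00502% and 10.5% of all genes. Without the doubted arrays the median was 1.45 and all 19 rose, against 7.68% of all genes. The members had 0.49 and 20 of 34 there. The 2 lists were not tested against each other.

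**Figure D5:**
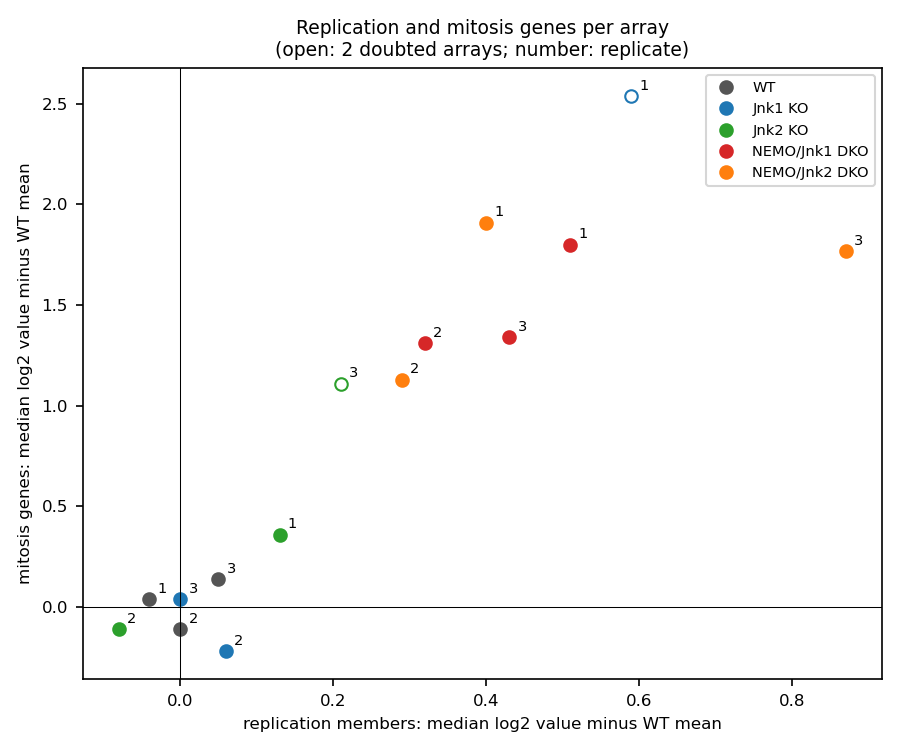
Each point is an array, placed by the median log2 value minus the WT mean over the 34 members (horizontal) and over 19 mitosis genes (vertical), coloured by group and numbered by replicate, with the 2 doubted arrays open. The 6 DKO arrays and both open points lie at 1.11 or more on the vertical axis, and the 7 other arrays at 0.36 or less.

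Other genes of replication were also read, as a wider list. Of 66 further genes for licensing and firing, polymerases and the fork, nucleotide synthesis, chromatin assembly and the E2F and pocket proteins, 65 were measured. As labelled their median averaged NEMO difference was 0.08. None passed the limma threshold and 16 had an unadjusted p under 0.05, against 0.00502% and 10.5% of all genes. Without the doubted arrays the median was 0.11, with 15 higher and 3 lower, against the same 7.68% and 3.97% of all genes. Among the genes with the lowest p by the naming rule, and again without the doubted arrays, Dnmt1, the maintenance methyltransferase, rose by 0.36 ± 0.08 (adjusted p = 0.00753), Pold4, a small subunit of polymerase delta, by 0.50 ± 0.09 (adjusted p = 0.00346), Rfc2 by 0.49 ± 0.14 (adjusted p = 0.0431), and Mtbp, which takes part in origin firing, by 0.49 ± 0.08 (adjusted p = 0.000979). As labelled these 4 were at 0.30, 0.35, 0.39 and 0.34 (adjusted p = 0.376 to 0.406). In the same reading the pocket protein Rbl2, which represses E2F targets in resting cells, was at -0.51 ± 0.07 (adjusted p = 0.000404) and Tfdp2, a dimerisation partner of E2F, at -0.58 ± 0.09 (adjusted p = 0.00123), against -0.37 and -0.41 as labelled (adjusted p = 0.376 for both). Rbl2 stood at 7.63, 7.81 and 7.77 in WT, 7.16, 7.57 and 7.47 in Jnk1 KO, 7.59, 7.53 and 7.11 in Jnk2 KO, and 6.91 to 7.14 in the 6 DKO arrays. Rbl1, the pocket protein that accumulates in cycling cells and was picked after its values were seen, was at 0.60 ± 0.26 as labelled (adjusted p = 0.454) and rose by 1.01 ± 0.11 without the doubted arrays (adjusted p = 8.3e-05). It had 4.38, 4.01 and 4.31 in WT and 5.52, 5.20 and 5.37 in NEMO/Jnk1 DKO, with 5.24, 5.03 and 5.48 in NEMO/Jnk2 DKO, and the 2 groups did not overlap WT. As labelled, 6 of the 65 passed for NEMO/Jnk2 DKO against WT, again beside 2.63% of all genes: Dbf4, Mtbp, Pold4 and Dnmt1 rose, and Pold2 and Rbl2 fell by 0.48 and 0.70.

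Markers of some other liver cells differed between the same arrays as the members, and those of others did not separate them. The summed level (log2 of the sum of the unlogged values) of 9 macrophage and monocyte markers was 10.60 to 11.18 in the DKO arrays and at most 9.83 in the 7 undoubted NEMO-intact arrays, and it reached 11.08 and 11.11 in the Jnk1 KO and Jnk2 KO groups. This list holds Mmp12, by which the doubted arrays were set aside, so its separation was partly fixed beforehand. Dropping Mmp12 from the sum, a reading added after the values were seen, does not undo that choice of arrays. The sum was then 10.41 to 10.97 in the DKO arrays and 8.92 to 9.81 in the 7 others. It reached 10.78 and 10.91 in the Jnk1 KO and Jnk2 KO groups. For 8 stellate cell and myofibroblast markers these were 10.56 to 10.94, 8.83 to 9.57, and up to 11.29 and 11.44. For 5 Kupffer cell markers the ranges met, at 10.01 to 10.92 and 9.07 to 10.14. The sums also overlapped for endothelial markers (9.62 to 9.90 in the DKO arrays and 9.48 to 10.01 in the 7), neutrophil markers (5.79 to 6.38 and 5.55 to 6.22), T and NK cell markers (6.39 to 7.17 and 6.31 to 6.56), bile duct and progenitor markers (6.85 to 7.75 and 6.64 to 6.96) and erythroid markers (9.20 to 9.91 and 9.63 to 9.95), while B and plasma cell markers lay at 5.63 to 6.23 and 5.32 to 5.59. For the averaged NEMO difference none of the genes on these 10 lists passed as labelled. In NEMO/Jnk2 DKO against WT as labelled, 1 of the 9 macrophage and monocyte markers was higher, against 0.873% of all genes. Without the doubted arrays, and against 7.68% of all genes higher and 3.97% lower, 7 of the 9 macrophage markers (6 of 8 without Mmp12), 6 of the 8 stellate and 3 of the 5 Kupffer cell markers rose with NEMO loss. In that reading 1 of 7 T and NK cell, 1 of 4 B and plasma cell and 1 of 5 erythroid markers rose, 2 of the 5 erythroid markers fell, and none of the 5 neutrophil, 5 bile duct and 5 endothelial markers passed. Of 7 hepatocyte markers 1 was lower, and their summed level stayed between 15.33 and 15.59 in all 15 arrays. It was 15.42 to 15.47 in NEMO/Jnk1 DKO and 15.33 to 15.35 in NEMO/Jnk2 DKO, against 15.44 to 15.59 in the 7. The NEMO/Jnk2 DKO arrays thus lay below the 7 undoubted NEMO-intact ones. No gene of the macrophage, stellate, Kupffer cell and hepatocyte lists was below 3.69 throughout, whereas Ly6g, Cd3d, Klrb1c, Cd79a, Ms4a1 and Cftr, markers of neutrophils, T cells, NK cells, B cells and bile duct cells, were. The part of these cells in the result was not tested.

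For the 29 members with a promoter window, the E2F letters were set beside the averaged NEMO difference. As labelled none passed, and the medians were 0.35 for the 13 members with the letters and 0.30 for the 16 without them. With the doubted arrays set aside, 9 of the 13 rose and 4 did not pass, with a median of 0.51. Of the 16 without the letters, 8 rose, Mcm10 was lower and 7 did not pass, with a median of 0.45. The background in this reading was 7.68% of all genes higher and 3.97% lower, and the 2 sets of members were not tested against each other. Mcm6, with 3 matches in the stretch printed above, had the largest difference, and Rrm2, with none there, was among the genes that rose.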

How the data were processed

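Livers of 15 mice in 5 groups of 3 were measured on 1 array each. The authors deposited log2 values per probe set, made with RMA per the submitters' processing notes (version and options not given in the sources used here). The log base was read from the range of the values. Of 35556 probe sets, 21789 had 1 symbol in the platform annotation, 1621 several and 12146 none listed. The highest-mean probe set of each symbol gave 19938 genes, 999 of them chosen from more than 1. Arrays correlated at 0.976 to 0.991. The replicates are separate mice.

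Group means were fitted to all 15 arrays with limma 3.58.1 in R 4.3.3 (10 residual and 3.75 prior degrees of freedom), and p-values were adjusted by Benjamini-Hochberg over all genes, with a threshold of 0.05. The procedure was tested on simulated data. Tables and plots used Python 3.11.15 and matplotlib 3.10.9. Values in every array were given for the member of each role with the lowest p in the averaged NEMO effect. They were also given for Rrm2, past the threshold as labelled, and for Mcm2, Mcm10, Prim1 and Tk1, picked after their values were seen. Prim2, also past the threshold as labelled, was given as group ranges. Orc6, and Rbl1 of the wider list, were likewise picked after their values were seen and were given in some groups only. A gene was called dim at or below 3.69, the 40th percentile of all values. It was exceeded by 32 of the 34 members in at least 3 arrays and by 29 in all 15. The members, marker lists and pathway lists were chosen with earlier results of these data known, and so were the 2 doubted arrays. Alternatives were another set of arrays in the fit, array weights, a robust prior with an intensity trend, further normalization or centring, no dim genes, other handling of probe sets, a replicate block, a sex term and leaving arrays out. Promoter windows came from RefSeq GRCm38.p6. The replicate numbers did not pair the arrays: over 30 pairs of the same number from different groups the correlation of deviations ran from -0.395 to 0.304, with 4 over 0.1.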

Additional observations from a re-analysis of the deposited data

How the results depend on the processing

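As labelled, no member passed for the NEMO difference on the Jnk1-null background, on the Jnk2-null background or averaged, nor for NEMO/Jnk1 DKO against WT, and 2 passed for NEMO/Jnk2 DKO against WT. Without the 2 doubted arrays these counts were 7, 10, 21, 9 and 16. With the sex term too they were 0, 8, 9, 0 and 17, in the same order. A fit to the arrays compared alone gave 15 and 12 members for NEMO/Jnk1 DKO and NEMO/Jnk2 DKO against WT, where 6.49% and 9.62% of all genes passed, and array weights gave 8 and 13, with 5.59% and 9.09%. For NEMO/Jnk2 DKO against WT the count was 6 with the sex term alone (5.19% of all genes), 11 without the arrays of female pattern (5.87%) and 5 without dim genes (4.43%). It was 1 with an intensity trend and robust prior (Fen1, with Prim2 and Rrm2 lost, 2.48%) and 1 with arrays centred on their median (Rrm2, with Prim2 lost, 2.67%). In Jnk2 KO against WT, averaging probe sets called 1 member (Tk1, 0.451% of all genes), and array weights called 1 between the DKO groups (Orc6, 0.487%). The causes of these shifts were not tested.

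Leaving out each array in turn gave 0 to 14 members for the averaged NEMO difference, 0 to 8 for NEMO/Jnk1 DKO against WT, 0 to 14 for NEMO/Jnk2 DKO against WT, 0 to 1 for Jnk2 KO against WT and 0 in the other 6 comparisons. With the replicate number as a block, 0 members passed for NEMO/Jnk2 DKO against WT, and the counts of the other 9 comparisons stayed at 0. Over 70 differences of single members and 1957 alternative values, 1746 kept their direction and side of the threshold, 184 newly passed, 27 (Prim2 and Rrm2 in NEMO/Jnk2 DKO against WT) no longer passed, and 0 changed direction. The 70 were picked by hand, largely from members that passed in some reading, so a kept direction was partly fixed by that choice. Apart from those of Prim2 and Rrm2 just named, none of the 70 passed as labelled. A kept side of the threshold was therefore mostly a repeated absence of a call. Groups of 3 arrays limit every count. Orc1 and Pole2 were dim in all 15 arrays, and Cdc6, Pole and Uhrf1 in some of them.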

Other observations

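Promoter letters differed between the replication members and the mitosis genes read beside them, with no test made. The E2F letters occurred in the windows of 44.8% of 29 members and 6.25% of 16 mitosis genes. The inverse held for CCAAT, at 58.6% and 87.5% (41.1% of all genes), and for TTTGAA or TTCGAA, the letters of the CHR element, at 17.2% and 75.0% (21.7% of all genes). All letters were searched on both strands of the same 300-base windows. Of 53 other replication genes with a window, 28.3% held the E2F letters.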
